A study of Bos taurus with 6 samples.

Results

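The 49 genes described here encode the enzymes and transporters of glycolysis, the pentose phosphate pathway and the tricarboxylic acid (TCA) cycle, with their cytosolic counterparts and the malate-aspartate shuttle. They were chosen by symbol as genes of these pathways, by a rule that uses no measured ratio, and every array probe annotated to a symbol was taken. Earlier results of these data were known when the genes were chosen. Of the 49 genes, 47 had a probe and 44 had at least 1 probe above background, against 9933 such genes on the whole array.

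Glycolysis splits glucose into pyruvate, which is reduced to lactate by lactate dehydrogenase or passed into mitochondria, where pyruvate dehydrogenase feeds it into the TCA cycle. The pentose phosphate pathway draws off glucose phosphate to make NADPH and ribose, and the malate-aspartate shuttle carries reducing equivalents from the cytosol into mitochondria. In the ovarian follicle, granulosa and cumulus cells take up glucose and supply pyruvate to the oocyte, which itself uses glucose poorly.

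The study compared granulosa cells of Hereford cross beef cows given FSH at 12 h intervals over 7 days (long FSH group) with those of cows treated over 4 days (conventional FSH group), and asked how the longer treatment changed gene expression. All cows had their follicles ablated, received an intravaginal progesterone device, prostaglandin and LH, and were ovariectomized 24 h after LH. RNA of the 3 largest follicles of a cow was pooled in equal amounts, and 3 cows of each group were hybridised as 3 cow pairs (1 cow of each group) on 6 two-colour arrays, each pair on 2 arrays with the dyes exchanged. Antral cells from the aspirate and mural cells scraped from the follicle wall were joined in 1 sample, and levels are per amount of amplified RNA, so fewer cells of a type and less RNA per cell cannot be told apart.

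A log2 ratio below is the level in long FSH over that in conventional FSH, averaged over both arrays of a pair, so that 1 stands for a 2-fold difference and n = 3 cow pairs. The direction is the likely one. It follows the dyes of the series' design text and takes conventional FSH as the reference, as the study's legends do. In this direction CYP19A1 (aromatase, which makes estradiol) had a log2 ratio of -1.81, INHBA (inhibin beta A) of -3.79 and FST (follistatin) of -1.76. The study reports these genes as lower in the long FSH group. It also reports less estradiol in the follicular fluid of that group, a measurement that does not depend on the dyes. The dyes in the sample labels are the opposite, and under them every higher value would read as lower. P is from limma fitted over all probes above background, and adjusted P is by the Benjamini-Hochberg method over the 9933 genes. The study's threshold means an unadjusted P of 0.05 or less and at least a 2-fold difference. The study also describes a false discovery rate filter, which this threshold leaves out. A level is a normalized log2 intensity of 1 probe, to be compared between cows but not between genes.

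Per array and dye, 41.8% to 51.4% of all probes were above background, and the median foreground was 127 to 220 intensity units against a background of 19 to 49. The log2 ratios of a pair's 2 arrays correlated across probes with r = 0.43, 0.65 and 0.24 in pairs 1, 2 and 3, and the pair means correlated with r = 0.43 between pairs 1 and 2 and 0.16 between pair 3 and either of them. Pairs 1 and 2 lay on the same 2 slides and pair 3 on 2 others, so slide and pair 3 cannot be told apart. Of 12 granulosa cell markers, 9 were above background, CYP19A1 and FSHR among them, whereas FOXL2, HSD17B1 and LHCGR were not. The summed intensity of these 9 was 36983 to 48551 in the long FSH cows and 90538 to 117150 in the conventional FSH cows. This sum and those below are led by the brightest probes and do not describe a list as a set. The median log2 ratio of the 9 was -0.68. At the study's threshold 3 were lower (CYP19A1, FST and INHBA), or 33.3% against 2.02% of all genes. NR5A2 was higher (1.30), or 11.1% against 3.39%, and GATM had 1.05. The study counts CYP19A1 and INHBA among genes that normally fall after the LH surge. The sum of 7 theca markers of 10 was 8068 to 10796 against 12791 to 30867 (CYP17A1, MYH11 and TAGLN not above background). The theca median log2 ratio was -0.01 with 3 of 7 above 0. LUM (-1.96) and DCN (-1.20) were lower at the study's threshold, or 28.6% against 2.02% of all genes. The sum of 11 leukocyte markers of 15 was 3725 to 9024 against 2675 to 6339 (CD4, CSF1R, ITGAM and ITGB2 not above background). All 11 had a log2 ratio above 0, with a median of 0.75. LYZ (1.52) and TYROBP (1.89) were higher at the study's threshold, or 18.2% against 3.39% of all genes. Their probes were above background in 6 and 5 of 6 long FSH readings, and in 2 and 0 conventional FSH readings. LYZ, TYROBP, AIF1, CD14, CD3D, CD74, CD8A and FCER1G reached the 3 readings needed for testing in the long FSH group only. Markers that enter in this way lean towards ratios above 0, so the leukocyte counts and median are not independent of the filter. CD3E, CD68 and PTPRC reached it in both groups, with log2 ratios of 0.75, 0.77 and 0.10. For 4 endothelial markers of 8 the sum was 497 to 584 against 541 to 678 (PECAM1, VWF, EMCN and ESAM not above background). The hemoglobin genes HBA and HBB were not above background. These markers differed between the same cows as the genes below, and their part in the results was not tested.

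Most of the 44 genes of glucose metabolism did not pass the study's threshold. PFKL, the liver type of phosphofructokinase, was 2.23-fold higher in the long FSH group, and MDH1, the cytosolic malate dehydrogenase, was 2.03-fold lower. These 2 genes were the only ones of the 44 past the study's threshold, or 4.55% against 5.42 percent of all genes tested. The 1 gene higher is 2.27% of the 44, against 3.39 percent of all genes tested, and the 1 gene lower is 2.27%, against 2.02 percent. At any fold, 5 genes (PFKL, PGAM1, DLD, MDH2 and MDH1) had an unadjusted P of 0.05 or less, which is 11.4% of the 44 against 11.7 percent of all genes. No gene of the array passed an adjusted P of 0.05 in limma (smallest 0.0767, with 1158 genes at an unadjusted P of 0.05 or less), and the smallest adjusted P among the 44 was 0.241.

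Over the 44 genes, 24 had a log2 ratio above 0 and 20 below 0, with a median of 0.02 and a range from -1.61 (FBP1) to 1.16 (PFKL). The median of all genes tested was 0.03. The log2 ratio kept the same sign in all 3 cow pairs for 15 of the 44 genes, or 34.1% against 36.0 percent of all genes. It kept the same sign on all 6 arrays for 6 genes (PFKL, FBP1, PGAM1, DLD, MDH2 and MDH1), or 13.6% against 11.1%. FBP1 was near 0 on array 3 (-0.02) and array 4 (-0.04). For 26 of the 44 genes (59.1%, against 62.0% of all genes) the 95% confidence interval of the log2 ratio lay within 2-fold in both directions, and for the other 18 it reached beyond 2-fold.

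**Figure D1:**
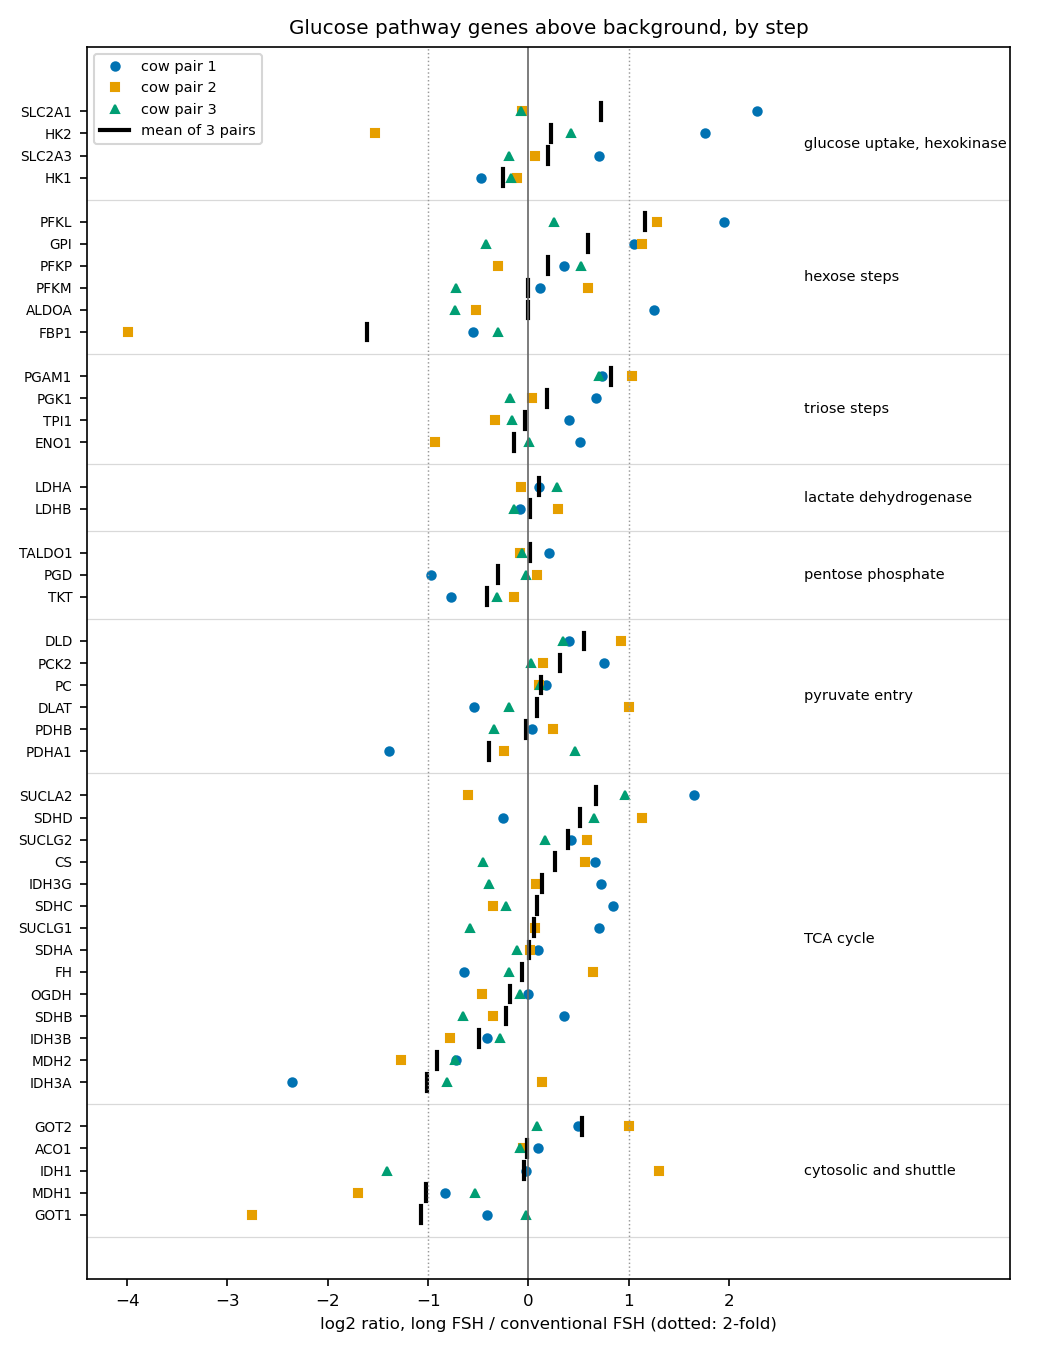
Log2 ratio of long FSH over conventional FSH (x axis) of the 44 genes above background (y axis, grouped by pathway step and ordered by their mean), with 1 point for each cow pair, a black bar at the mean of 3 pairs and dotted lines at a 2-fold difference. PFKL lies right of 0 and MDH1 and MDH2 left of 0 in all 3 pairs, whereas for IDH1, HK2 and SUCLA2 the pairs fall on both sides.

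None of the 4 genes of glucose uptake and phosphorylation passed the study's threshold, and 2 of them varied widely between cow pairs. SLC2A1 and SLC2A3 are facilitative glucose transporters, and the hexokinases HK1 and HK2 phosphorylate glucose. The level of SLC2A1 was 10.16, 9.27 and 10.02 in long FSH cows 1, 2 and 3, and 7.89, 9.33 and 10.09 in the conventional FSH cows. The groups overlapped, and conventional FSH cow 1 alone was low. Pairs 1, 2 and 3 thus had log2 ratios of 2.28, -0.06 and -0.07 for SLC2A1, with a mean of 0.72 ± 1.35 (SD, n = 3; adjusted P = 0.577). It was -0.06 without pair 1, and a second, dimmer probe of SLC2A1 gave -0.16. HK2 had log2 ratios of 1.76, -1.53 and 0.42 in the 3 pairs (mean 0.22 ± 1.65, adjusted P = 0.882), and its mean was 1.09 without pair 2, where it passed the study's threshold, and -0.55 without pair 1. SLC2A3 (0.19 ± 0.45) and HK1 (-0.25 ± 0.19) had small ratios, and their 95% intervals lay within 2-fold.

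Among the enzymes that act on hexose phosphates, PFKL rose. Phosphofructokinase commits glucose to glycolysis, and its L, M and P subunits are products of separate genes. The level of PFKL was 14.34, 13.06 and 13.96 in the long FSH cows and 12.39, 11.78 and 13.71 in the conventional FSH cows. The long FSH cow was the higher of the 2 in every pair, but the groups overlapped because conventional FSH cow 3 was above long FSH cow 2. The log2 ratio of PFKL was 1.95, 1.28 and 0.25 in pairs 1, 2 and 3, with a mean of 1.16 ± 0.86 (95% interval 0.28 to 2.04, adjusted P = 0.312). Without pair 1 it was 0.77 and did not pass the study's threshold. PFKM had a level of 9.86, 8.72 and 9.47 in the long FSH cows and 9.74, 8.13 and 10.19 in the conventional FSH cows. Its log2 ratio was 0.00 ± 0.66, with 0.12, 0.59 and -0.72 in the 3 pairs (adjusted P = 0.997). PFKP had a log2 ratio of 0.19 ± 0.43.

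FBP1, fructose bisphosphatase, catalyses the reverse of the phosphofructokinase step in gluconeogenesis. Its level was 7.09, 7.60 and 8.12 in the long FSH cows and 7.64, 11.59 and 8.41 in the conventional FSH cows. Conventional FSH cow 2 stood above all other cows, and the rest of the 2 groups overlapped. Its log2 ratio was -0.55, -3.99 and -0.30 in the 3 pairs, with a mean of -1.61 ± 2.06 (95% interval -3.46 to 0.23, adjusted P = 0.463), and it was -0.43 without pair 2 and -2.27 without pair 3, where it passed the study's threshold. The probe was above background in 5 of 6 long FSH readings and in all 6 conventional FSH readings. GPI, which interconverts glucose phosphate and fructose phosphate, had a log2 ratio of 0.59 ± 0.87 (1.05, 1.13 and -0.42 in the 3 pairs, adjusted P = 0.533). It was 1.09 without pair 3, where it passed the study's threshold, 0.35 without pair 1 and 0.31 without pair 2, and its second probe gave -0.09. ALDOA, the aldolase that splits fructose bisphosphate into trioses, had 1.25, -0.52 and -0.73 in the 3 pairs and a mean of 0.00 ± 1.09. ALDOC was not above background in enough readings to be tested.

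Of the enzymes of the triose steps, PGAM1 differed between the groups in every cow. PGAM1, phosphoglycerate mutase, moves the phosphate of phosphoglycerate. Its level was 14.42, 14.55 and 14.70 in the long FSH cows and 13.69, 13.53 and 13.99 in the conventional FSH cows, so that the lowest long FSH cow was above the highest conventional FSH cow. The log2 ratio was 0.73, 1.03 and 0.70 in the 3 pairs, with a mean of 0.82 ± 0.18 (95% interval 0.32 to 1.32, adjusted P = 0.242). The unadjusted P was below 0.05, and the 1.76-fold difference was short of the 2-fold limit of the study's threshold. The neighbouring enzymes TPI1, PGK1 and ENO1 had log2 ratios of -0.03 ± 0.38, 0.18 ± 0.44 and -0.14 ± 0.73, and their 95% intervals lay within 2-fold. GAPDH and PKM2 (also PKM) had no annotated probe, and ENO2 was not above background.

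At the brightest probe of each lactate dehydrogenase gene the 95% interval of the log2 ratio lay within 2-fold. LDHA, the subunit that predominates in glycolytic tissue, had a level of 15.15, 15.40 and 15.53 in the long FSH cows and 15.04, 15.47 and 15.25 in the conventional FSH cows. Its log2 ratio was 0.11 ± 0.18 (95% interval -0.39 to 0.61, adjusted P = 0.822). On the single arrays the value was 1.17, 0.15 and 0.94 on arrays 1, 2 and 3, and -0.95, -0.30 and -0.38 on arrays 4, 5 and 6, where the dyes were exchanged. Its sign thus followed the dye orientation of the array. The same split was seen for TALDO1, so for 2 of the 44 genes (4.55%, against 2.73% of all genes). A second probe of LDHA gave 0.55, with 0.76, 0.35 and 0.52 in the 3 pairs and an unadjusted P of 0.05 or less. LDHB had a log2 ratio of 0.02 ± 0.23 (95% interval -0.49 to 0.54).

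Taken over its 16 genes above background, glycolysis had a median log2 ratio of 0.14, which was 0.59 in pair 1, -0.07 in pair 2 and -0.15 in pair 3. The median of all genes lay between 0.00 and 0.04 in each pair. In pair 1 the 4 uptake and hexokinase genes had a median of 1.23, the 6 genes of the hexose steps 0.70 and the 4 genes of the triose steps 0.59, and 5 glycolysis genes had a log2 ratio of 1 or more there. The medians of the same 3 steps were -0.08, 0.15 and -0.14 in pair 2, and -0.12, -0.36 and -0.08 in pair 3.

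**Figure D2:**
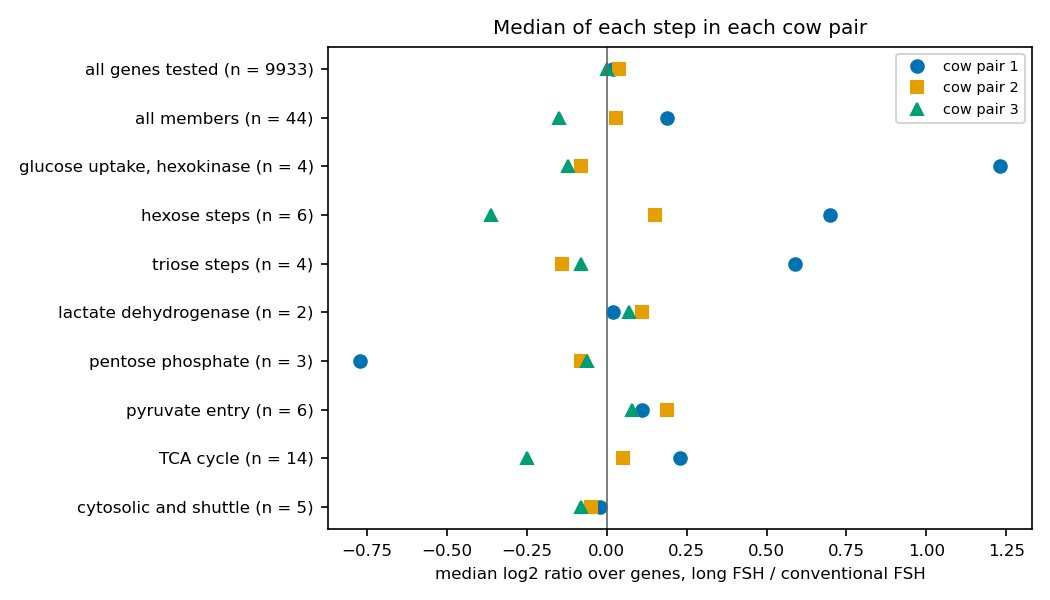
Median log2 ratio of long FSH over conventional FSH (x axis) over the genes of each pathway step and over all genes tested (y axis, with the number of genes), with 1 point for each cow pair. The steps of glycolysis lie between 0.59 and 1.23 in pair 1 and between -0.36 and 0.15 in pairs 2 and 3, except lactate dehydrogenase, which is near 0 in all pairs.

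The 3 pentose phosphate genes above background had a median log2 ratio of -0.30, with -0.77, -0.08 and -0.06 in the 3 pairs. TKT, transketolase, links the pentose phosphate pathway back to glycolysis. Its level was 10.88, 10.36 and 11.01 in the long FSH cows and 11.64, 10.50 and 11.32 in the conventional FSH cows, with overlap. Its log2 ratio was below 0 in all 3 pairs (-0.77, -0.14 and -0.31), with a mean of -0.41 ± 0.32 (95% interval -0.96 to 0.15, adjusted P = 0.503). PGD, phosphogluconate dehydrogenase, had a log2 ratio of -0.30 ± 0.58, and TALDO1, transaldolase, had 0.02 ± 0.15.

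At the entry of pyruvate into mitochondria, 1 of 6 genes had an unadjusted P of 0.05 or less. DLD, the lipoamide dehydrogenase shared by the pyruvate and oxoglutarate dehydrogenase complexes, had a level of 10.09, 10.38 and 10.33 in the long FSH cows. It was 9.69, 9.46 and 9.99 in the conventional FSH cows, and the groups did not overlap. The log2 ratio of DLD was 0.40, 0.92 and 0.34 in the 3 pairs, with a mean of 0.55 ± 0.32 (adjusted P = 0.428), a 1.47-fold difference. Its unadjusted P was close to 0.05, and it stayed at 0.05 or less in 11 of 25 alternatives. Among the other subunits of the pyruvate dehydrogenase complex, PDHA1 had a log2 ratio of -0.39 ± 0.93, PDHB had -0.02 ± 0.30 and DLAT had 0.09 ± 0.81. PC, pyruvate carboxylase, which makes oxaloacetate from pyruvate, had 0.13 ± 0.03, but its single arrays ran from -0.73 to 0.97. Its probe was just inside the limit for testing, with 3 of 6 long FSH and 4 of 6 conventional FSH readings above background, and that of ENO2 was just outside it, with 2 and 0. PCK2, the mitochondrial phosphoenolpyruvate carboxykinase, had 0.31 ± 0.38.

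In the TCA cycle, 14 genes were above background, and their median log2 ratio was 0.04 (0.23, 0.05 and -0.25 in the 3 pairs). MDH2, the mitochondrial malate dehydrogenase of the last step of the cycle, had the smallest P of the 44 genes. Its level was 11.25, 10.42 and 10.20 in the long FSH cows and 11.97, 11.70 and 10.92 in the conventional FSH cows. The long FSH cow was the lower in every pair, although long FSH cow 1 was above conventional FSH cow 3. The log2 ratio of MDH2 was -0.72, -1.27 and -0.73, with a mean of -0.91 ± 0.32 (95% interval -1.46 to -0.36, adjusted P = 0.241). The 1.87-fold difference did not reach the 2-fold limit, and of the alternatives with that limit the gene passed only where pair 1 was left out or the deposited table was used.

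Isocitrate dehydrogenase of the cycle is built of the catalytic subunit IDH3A and the subunits IDH3B and IDH3G. The level of IDH3A was 12.28, 11.67 and 11.29 in the long FSH cows and 14.64, 11.54 and 12.10 in the conventional FSH cows, where cow 1 was high. Its log2 ratio was -2.36, 0.14 and -0.81 in the 3 pairs (mean -1.01 ± 1.26, adjusted P = 0.469), and it was -1.58 without pair 2, where it passed the study's threshold, and -0.34 without pair 1. IDH3B had 9.14, 8.57 and 8.96 in the long FSH cows and 9.55, 9.35 and 9.24 in the conventional FSH cows, with no overlap, and a log2 ratio of -0.49 ± 0.26 (adjusted P = 0.449). IDH3G had 9.15, 8.79 and 9.12 against 8.43, 8.70 and 9.51, with overlap, and a log2 ratio of 0.14 ± 0.56 (adjusted P = 0.829). The other 2 tested probes of IDH3G gave -0.25 and -0.65, the latter with an unadjusted P of 0.05 or less, so its probes disagreed in sign.

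The remaining enzymes of the cycle had no unadjusted P of 0.05 or less. The log2 ratio was 0.26 ± 0.61 for CS, citrate synthase, -0.18 ± 0.25 for OGDH, of the oxoglutarate dehydrogenase complex, and -0.06 ± 0.65 for FH, fumarase. The 4 subunits of succinate dehydrogenase had 0.01 ± 0.11 (SDHA), -0.22 ± 0.51 (SDHB), 0.09 ± 0.65 (SDHC) and 0.51 ± 0.70 (SDHD). Of the succinyl-CoA ligase, the shared subunit SUCLG1 had 0.06 ± 0.64, the GTP-forming SUCLG2 had 0.39 ± 0.21 and the ATP-forming SUCLA2 had 0.67 ± 1.15. A second, dimmer probe of SUCLG2 gave -0.37, with -0.54, -0.52 and -0.05 in the 3 pairs, so its probes disagreed in sign. SUCLA2 had 1.65, -0.60 and 0.96 in the 3 pairs, and its mean was 1.30 without pair 2, where it passed the study's threshold, and 0.18 without pair 1. IDH2 was not above background.

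Outside the cycle, MDH1 fell. MDH1 turns oxaloacetate into malate in the cytosol, and with MDH2 and the aspartate aminotransferases GOT1 (cytosolic) and GOT2 (mitochondrial) it forms the malate-aspartate shuttle. The level of MDH1 was 13.45, 13.51 and 13.23 in the long FSH cows and 14.28, 15.21 and 13.76 in the conventional FSH cows. The groups did not overlap. The log2 ratio was -0.83, -1.70 and -0.53 in the 3 pairs, with a mean of -1.02 ± 0.61 (95% interval -1.73 to -0.31, adjusted P = 0.289). A second probe of MDH1 gave -0.59 and did not pass. The mean lay close to the 2-fold limit, and it was -0.80 as the mean of both probes, -0.68 without pair 2 and -0.95 to -0.99 without array 1, 2 or 6, none of which reached 2-fold.

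GOT1 had a level of 8.32, 8.11 and 8.47 in the long FSH cows and 8.74, 10.88 and 8.49 in the conventional FSH cows. All 3 long FSH cows were below the conventional FSH cows, but cows of pair 3 differed by only 0.02. The log2 ratio of GOT1 was -0.41, -2.76 and -0.02 in the 3 pairs (mean -1.07 ± 1.48, adjusted P = 0.488), and -0.22 without pair 2 and -1.59 without pair 3, where it passed the study's threshold. GOT2 had a level of 9.06, 9.21 and 8.95 in the long FSH cows and 8.57, 8.21 and 8.86 in the conventional FSH cows, with no overlap. Its log2 ratio was 0.49, 1.00 and 0.09 in the 3 pairs (mean 0.53 ± 0.45, adjusted P = 0.469). Of the 4 shuttle enzymes, MDH1, MDH2 and GOT1 thus had ratios below 0 and GOT2 above 0 in each pair. ACO1, the cytosolic aconitase, had -0.01 ± 0.09, but its single arrays ran from -1.20 to 1.05. IDH1, a cytosolic source of NADPH, had -0.02, 1.30 and -1.41 in the 3 pairs, and its 2 arrays of pair 2 gave 2.51 and 0.10.

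**Figure D3:**
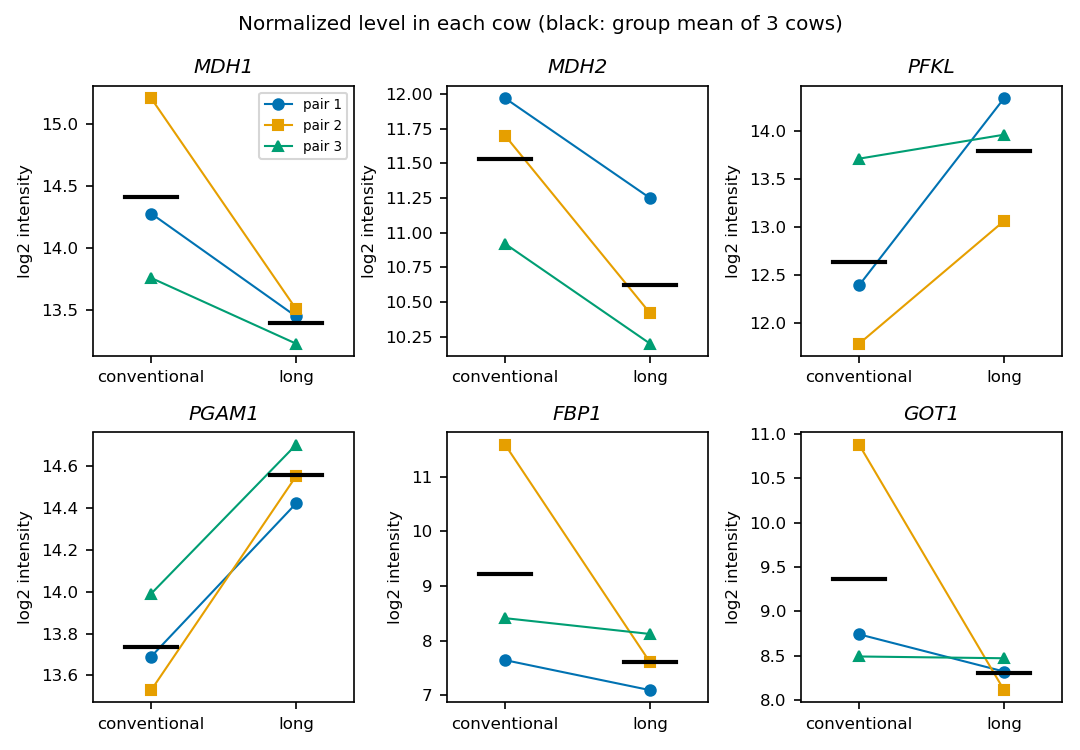
Normalized log2 intensity (y axis, different range in each panel and not starting at 0) of 6 genes in the conventional FSH and long FSH cows (x axis), with a line joining the 2 cows of a pair and a black bar at the mean of 3 cows. Every line falls for MDH1 and MDH2 and rises for PFKL and PGAM1, and for FBP1 and GOT1 the fall is mainly that of pair 2.

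In all, the cows of the groups did not overlap for 3 genes higher in long FSH (PGAM1, DLD and GOT2), or 6.82% against 8.62 percent of all genes. They did not overlap for 3 genes lower in long FSH (IDH3B, MDH1 and GOT1), or 6.82% against 6.25 percent. The spread between pairs was wide for a part of these genes. The SD of the log2 ratio was above 1 for 8 of the 44 (SLC2A1, HK2, FBP1, ALDOA, IDH3A, SUCLA2, IDH1 and GOT1), or 18.2% against 10.5% of all genes. A log2 ratio of at least 1 in either direction was found for 8 genes in pair 1 (18.2%, against 12.9% of all genes), for 11 in pair 2 (25.0%, against 18.1%) and for 1 in pair 3 (2.27%, against 8.47%). The 1 gene in pair 3 was IDH1. Conventional FSH cow 2 had the highest level of all 6 cows for FBP1, GOT1, MDH1, HK2, SUCLA2, PDHA1 and OGDH. The share of all genes with their highest level in this cow was not counted, so the list shows nothing particular to these pathways. Leukocyte markers were also uneven between pairs, with a median log2 ratio of 0.26, 0.42 and 1.62 in pairs 1, 2 and 3 and the highest sums in both cows of pair 3. Their part in the spread of the pathway genes was not tested.

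Isoforms and partner enzymes were compared within cow pairs by the difference of their log2 ratios. Of 17 listed combinations, 14 had both genes above background. An exact sign-flip permutation test over 3 pairs cannot give a two-sided P below 0.25, so no difference could pass, and after adjustment over the 14 every P was 0.75. The ratio of PFKL exceeded that of PFKM in all 3 pairs, by 1.83, 0.69 and 0.97 (mean 1.16 ± 0.59, 95% interval -0.31 to 2.64, exact P = 0.25). It exceeded that of PFKP in pairs 1 and 2 only (1.59, 1.58 and -0.28, mean 0.97 ± 1.08). The ratio of GOT1 was below that of GOT2 in all 3 pairs, with differences of -0.91, -3.76 and -0.11 (mean -1.59 ± 1.92, 95% interval -6.36 to 3.18, exact P = 0.25), and the mean was -0.51 without pair 2. These were the 2 combinations with the same order in all 3 pairs. IDH3A and IDH3G differed by -1.15 ± 1.69 with both orders (exact P = 0.5), and by -0.18 without pair 1.

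The 2 malate dehydrogenases differed by -0.11 ± 0.32 (95% interval -0.90 to 0.67, exact P = 0.75), with -0.11, -0.43 and 0.20 in the 3 pairs. LDHA and LDHB differed by 0.08 ± 0.40 (95% interval -0.91 to 1.08). For the other 9 combinations the mean difference was between -0.63 (IDH3B minus IDH3G) and 0.97 (PFKL minus PFKP), and each interval included 0.

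**Figure D4:**
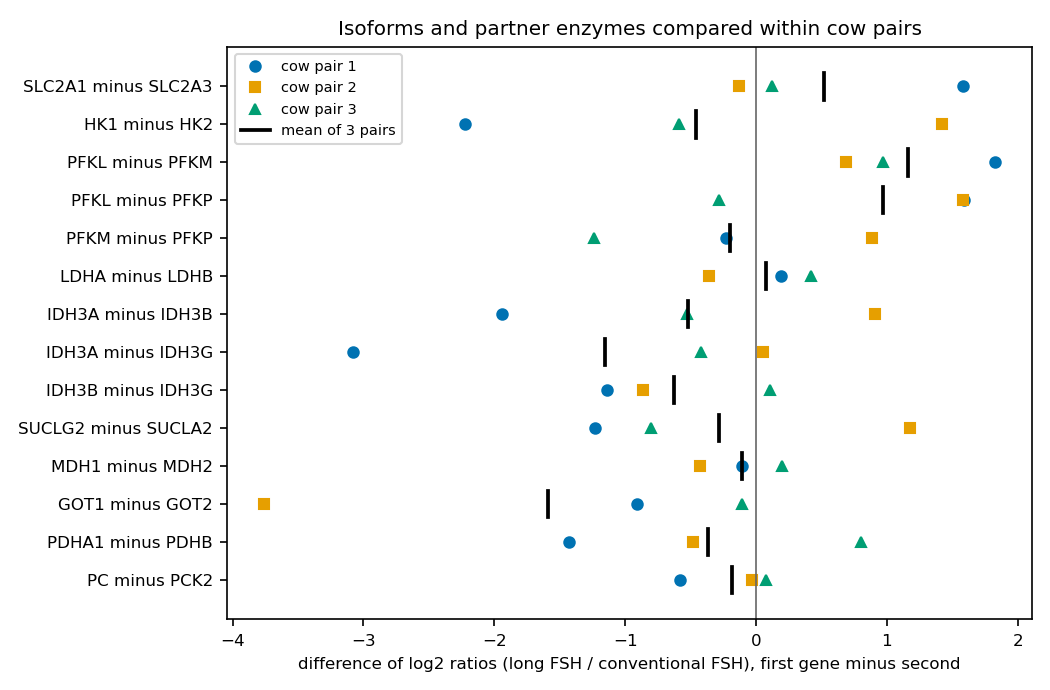
Difference of log2 ratios (long FSH over conventional FSH) between 2 genes, first minus second (x axis), for 14 combinations of isoforms or partner enzymes (y axis), with 1 point for each cow pair and a black bar at the mean of 3 pairs. PFKL minus PFKM lies above 0 and GOT1 minus GOT2 below 0 in all 3 pairs, and the other 12 combinations have points on both sides.

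Other genes of the same pathways were held to the same threshold. Of 78 such genes listed from general knowledge, 45 were above background, with a median log2 ratio of 0.06, and 1 rose and 1 fell at the study's threshold (2.22% each, against 3.39% and 2.02% of all genes). PDK3, a kinase that inactivates pyruvate dehydrogenase, had 2.67, 2.59 and 0.06 in the 3 pairs (mean 1.77 ± 1.49, adjusted P = 0.322). SLC16A1, a monocarboxylate transporter that carries lactate and pyruvate, had -1.37, -2.17 and -0.17 (mean -1.24 ± 1.01, adjusted P = 0.344). Among the genes that did not pass, ACSS1, a mitochondrial acetyl-CoA synthetase, had 1.08, 2.77 and -0.42 in the 3 pairs (mean 1.15), ME2, a mitochondrial malic enzyme, had 0.85 ± 0.50 (adjusted P = 0.313) and TKTL1, a transketolase-like enzyme, had 0.83 ± 0.46 (adjusted P = 0.309).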

How the data were processed

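Foreground and local background intensity values (medians of a spot, both dyes) came from the authors' scanner software and were used as deposited. The authors also deposited a table of normalized log2 ratios of the same arrays. Its columns matched the other array of the same cow pair (r = 0.84 to 0.90) and not their own, so the labelled dyes set its direction, and it was used as an alternative only.

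After the study's methods, local background was taken off, 0.5 replaced values of 0 or less, and ratios were normalized by loess within arrays (limma 3.58.1, R 4.3.3). Quantile normalization between arrays was applied to mean intensities and left the ratios unchanged. Both arrays of a cow pair hold the same extracts and were averaged. Limma was fitted to the 3 pair means of 23480 of 43794 probes, which exceeded the negative controls (153 spots, mean plus 2 SD) in 3 or more of the 6 readings of a group. Each gene was represented by its brightest tested probe, named from the array's annotation, in which 982 symbols were updated. The pairing is that of the hybridisations. Over probes, a cow's deviation from its group mean correlated at 0.153 to 0.260 with that of its partner, and at -0.223 to -0.0131 with those of other cows. Partners share their arrays, and deviations from a mean of 3 cows sum to 0. These correlations therefore cannot show whether the cows of a pair are alike. The fit was tested on simulated data with independent noise for each probe, which lack the dye and slide effects of these arrays.

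Genes and lists were chosen with earlier results of these data known. The rule for naming gave values in full for genes past the study's threshold, in an isoform pair differing by 1 or more, with the smallest P of a step, or coding for an enzyme the study names (fructose bisphosphatase and malate dehydrogenase, taken here as FBP1, MDH1 and MDH2). Alternatives were other background corrections, floors, normalizations, filters, probe rules, replicate units, limma options, fold limits, and leaving out each pair or array. No genome coordinates are given because the sources used here name no build.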

Additional observations from a re-analysis of the deposited data

How the results depend on the processing

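At the study's threshold, 1 gene was higher (PFKL) and 1 lower (MDH1). None was higher with cows compared 3 against 3 with no replicate block, or from the deposited table (0 in both). With a 1.5-fold limit 2 were higher and 2 lower, and with no fold limit 3 were higher and 2 lower. None (0) was lower with the mean of a gene's probes. With the 6 arrays as replicates, 4 were lower (FBP1, GOT1, IDH3A and MDH1) with the replicate block, with the replicate block and a dye term, with no replicate block, and with the slide as a random block, or 9.09% of the 44 against 2.33% to 2.38% of all genes. Leaving out 1 pair or array gave 0 to 3 genes higher and 0 to 3 lower. PFKL passed in 22 of 25 alternatives with the 2-fold limit and MDH1 in 19. A fit on genes in place of probes, chosen after seeing the data, kept both calls. The 6-array fits treat 2 arrays of the same RNA as separate, and an adjusted P of 0.05 or less was then reached by 485 genes with the replicate block, 576 with no block and 558 with slides, PFKL, PGAM1, MDH1 and MDH2 among them each time, and by 405 with the dye term added, with MDH2 among them. With trend and robust options 100 genes reached it, with no filter on dim probes 34, and without pair 3 or pair 2 it was 120 or 31, none of the 44 among these. From the deposited table, PFKL was 0.83 and MDH1 -0.90, and neither passed, while MDH2 was -1.24 and passed. In that table MDH1 minus MDH2 was 0.34. All genes past the study's threshold were 337 higher and 201 lower, 186 and 138 from the deposited table, and 594 and 397 without pair 3.

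The medians of glycolysis (-0.06 to 0.26), pentose phosphate (-0.49 to -0.07) and TCA cycle genes (-0.21 to 0.15) moved by less than the spread between pairs in all alternatives. Of the 44 log2 ratios, 25 had the other sign in at least 1 alternative. Among genes described in full, apart from PFKM with a ratio of 0.00, signs turned for LDHA (-0.07 with median centring, -0.25 without array 1 and -0.11 without array 3), for IDH3G (-0.25 with the mean of its probes, -0.21 from the deposited table, -0.15 without pair 1 in a range up to 0.40 without pair 3, and -0.02 without array 6) and for SLC2A1 (-0.06 without pair 1 in a range up to 1.11 without pair 3). The causes were not tested. A fit without 1 pair rests on 2 pairs. The number of arrays, 3 cows a group, and dim probes near background limit the precision.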

Other observations

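Genes that respond to hypoxia, some of which share regulation by hypoxia-inducible factor with glycolysis genes, were given as a further list. Of 24 listed, 21 were above background, with a median log2 ratio of -0.02, and 2 rose (9.52%, against 3.39% of all genes) and 1 fell (4.76%, against 2.02%) at the study's threshold. Their summed intensity was 120530 to 128440 in the long FSH cows and 68264 to 93612 in the conventional FSH cows. Such a sum is led by the brightest probes and does not describe the list as a set. Of the 21 genes, 10 had a log2 ratio above 0 and 11 below 0. BNIP3L, a mitophagy receptor, had log2 ratios of 1.53, 2.39 and 1.17 in the 3 pairs (mean 1.70 ± 0.62, adjusted P = 0.145). BNIP3, its relative, had 1.81, 1.36 and -0.15 (mean 1.01 ± 1.03, adjusted P = 0.428), so the pairs disagreed in sign. DDIT4, an inhibitor of mTOR signalling, had -0.17, -2.85 and -0.99 (mean -1.34 ± 1.37, adjusted P = 0.411). Of the genes that did not pass, log2 ratios ranged from -0.43 (P4HA2) to 1.06 (EGLN3, with 0.04, 0.65 and 2.47 in the 3 pairs). Among them, HIF1A had 0.29 ± 0.46, PDK1 had -0.02 ± 0.84 and VEGFA had -0.24 ± 0.68.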
